A study of Mus musculus with 6 samples.

Results

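Enzymes that write, erase or remove marks on histone lysines are described here in injured mouse muscle with and without the histamine-making enzyme. The members were found by gene symbol: genes of the Kdm, Kmt, Setd, Smyd, Hdac and Sirt families, with Ezh1, Ezh2, Dot1l, Setdb1 and Setdb2, and without Kdm5c, Kdm5d and Kdm6a. The choice used no measured value and found 59 of the 25572 genes in the table. They comprise 26 genes of the methyltransferase families, 15 demethylases, 11 histone deacetylases (HDACs) and 7 sirtuins. Of these, 55 reached a mean of 0.5 FPKM over the libraries and were tested. FPKM counts fragments scaled to gene length and to library size, so levels can be set beside each other between genes.

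The 3 HDCKO mice are labelled Hdc-/- and lack histidine decarboxylase, without which histidine is not turned into histamine. The 3 WT mice are wild type. Both groups had surgery for hind limb ischaemia (HLI), which restricts blood flow to the leg, and hind limb muscle was taken on day 3. The series title names histamine, macrophages and vessel growth as its subject. Uninjured muscle was not analysed here. Age, strain and leg, and whether the Hdc deletion is limited to some cells, were not given in the sources used here.

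Methyltransferases place methyl groups on lysines of histone tails. Methylation of H3K4 and H3K36 is found at transcribed genes, and that of H3K27 and of H3K9 at silenced ones. Demethylases of the LSD family use flavin, and those of the JmjC family use oxygen and alpha-ketoglutarate. Class I HDACs act within nuclear corepressor complexes, class IIa HDACs bind and restrain MEF2 transcription factors in muscle, and sirtuins consume NAD+. Several members also modify other proteins: Smyd1 is needed for sarcomere assembly in striated muscle, and Sirt3, Sirt4 and Sirt5 work in mitochondria.

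The libraries held an estimated 29500000 to 37600000 fragments each. Hdc had 1.22 to 2.52 FPKM in HDCKO and 7.49 to 8.17 in WT. The defining markers of skeletal muscle differed widely in share. The 18 mature fibre markers made up 13.2% to 22.7% of all FPKM in HDCKO and 0.120% to 0.442% in WT, and all 18 were higher in HDCKO. None of these markers was at 0 in any library. The 12 neutrophil markers made up 0.00735% to 0.0171% in HDCKO and 0.634% to 3.52% in WT, and all 12 were lower in HDCKO. Macrophage markers (6 of 12 lower) made up 0.0716% to 0.519% and 0.590% to 0.755%, endothelial markers (5 of 8 lower) 0.0420% to 0.0683% and 0.0958% to 0.138%, and fibroblast markers (2 of 8 lower) 0.341% to 0.538% and 0.636% to 1.24% in HDCKO and WT. Lyz2, which was not called, had a mean of 708 of the 1160 FPKM summed over macrophage markers in HDCKO. In WT it had 1498.5 of 2814 FPKM. Of 8 myoblast markers, 2 were higher. All these marker counts stand against 17.8% of all genes higher and 42.6% lower. The 13 cycling cell markers stood at 0.00586%, 0.0123% and 0.0557% in HDCKO replicates 1, 2 and 3 and at 0.0816% to 0.101% in WT, and 11 were lower. The cycling cell count was 6 with median-of-ratios scaling, 4 without HDCKO replicate 1, 13 without replicate 3, and 1 without HDCKO replicate 2 or any WT replicate. The macrophage count was 3 without HDCKO replicate 2, WT replicate 1 or WT replicate 3, and 9 without HDCKO replicate 3. That of endothelial markers was 3 without HDCKO replicate 2 or WT replicate 2 and 2 without WT replicate 1. For fibroblast markers it was 4 without WT replicate 2 and 1 without HDCKO replicate 2, WT replicate 1 or WT replicate 3, and leaving out any library other than HDCKO replicate 1 left 1 myoblast marker higher. HDCKO replicate 3 stood apart from the other HDCKO libraries by its summed cycling cell markers (236 FPKM, against 26.7 and 55.4). It also did so by its summed myoblast markers (160 FPKM, against 33.2 and 37.2). HDCKO replicate 1 stood apart by its T and B lymphocyte markers, which summed to 0.695 FPKM against 99.3 and 243 in replicates 2 and 3 and 2.07 to 4.27 in WT. None of these 10 markers was called (limma, 0 also at an unadjusted p under 0.05), and all 10 were higher without HDCKO replicate 1. In these bulk samples, fewer cells of a type and less RNA per cell cannot be told apart. The part of these markers in the results below was not tested.

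On the deposited values, 8 of the 55 tested members were higher in HDCKO and 19 were lower (limma, Benjamini-Hochberg adjusted p under 0.05 over all 13288 genes tested). Among all genes tested, 17.8% were higher and 42.6% lower, and the median log2 change was -0.50, against -0.41 for the members. The count of lower members is thus read against a background in which most called genes were lower. The direction of many members depended on how the libraries were scaled: with median-of-ratios scaling 16 were higher and 11 lower (26.3% and 26.3% of all genes), and the median of all genes was -0.04. After quantile normalization 14 members were higher and 14 lower (23.5% and 30.7% of all genes). With fibre and mitochondrial genes left out of the FPKM sum, 15 were higher and 11 lower (26.0% and 23.9%). Of the calls on members, 29.6% were higher as deposited, 59.3% with median-of-ratios scaling, 50% after quantile normalization and 57.7% without the fibre and mitochondrial genes in the sum.

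All 8 higher members stayed higher under these 3 other scalings, and 11 of the 19 lower members stayed lower. The other 8 (Ezh2, Hdac6, Kdm2a, Kmt2b, Kmt2e, Kmt5c, Setd1a and Setdb1) were not called with median-of-ratios scaling. Calls made under each of the 15 alternatives tried, including each library left out in turn, were those of Smyd1, Smyd2, Setd7, Hdac11 and Sirt3 as higher, and of Hdac1, Hdac7, Kdm3a, Kdm5b, Kdm6b, Kdm7a, Sirt6, Sirt7 and Smyd5 as lower. With a further condition of a log2 change of at least 1, 5 members were higher and 12 lower (11.6% and 26.0% of all genes). The ranges of the groups did not overlap for 11 members higher and 27 members lower in HDCKO (21.2% and 51.4% of all genes), among them all 27 called members. Left without HDCKO replicate 3 the fit called 32 members lower, and with replicate 1 or 2 left out instead 14 and 9. The same fits called 7266, 4418 and 2502 of all 13288 genes lower. Leaving out WT replicate 1, 2 or 3 gave 12, 11 and 9 lower members (3019, 3179 and 2813 of all genes). The other counts with a library left out stand against these counts of all genes.

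**Figure D1:**
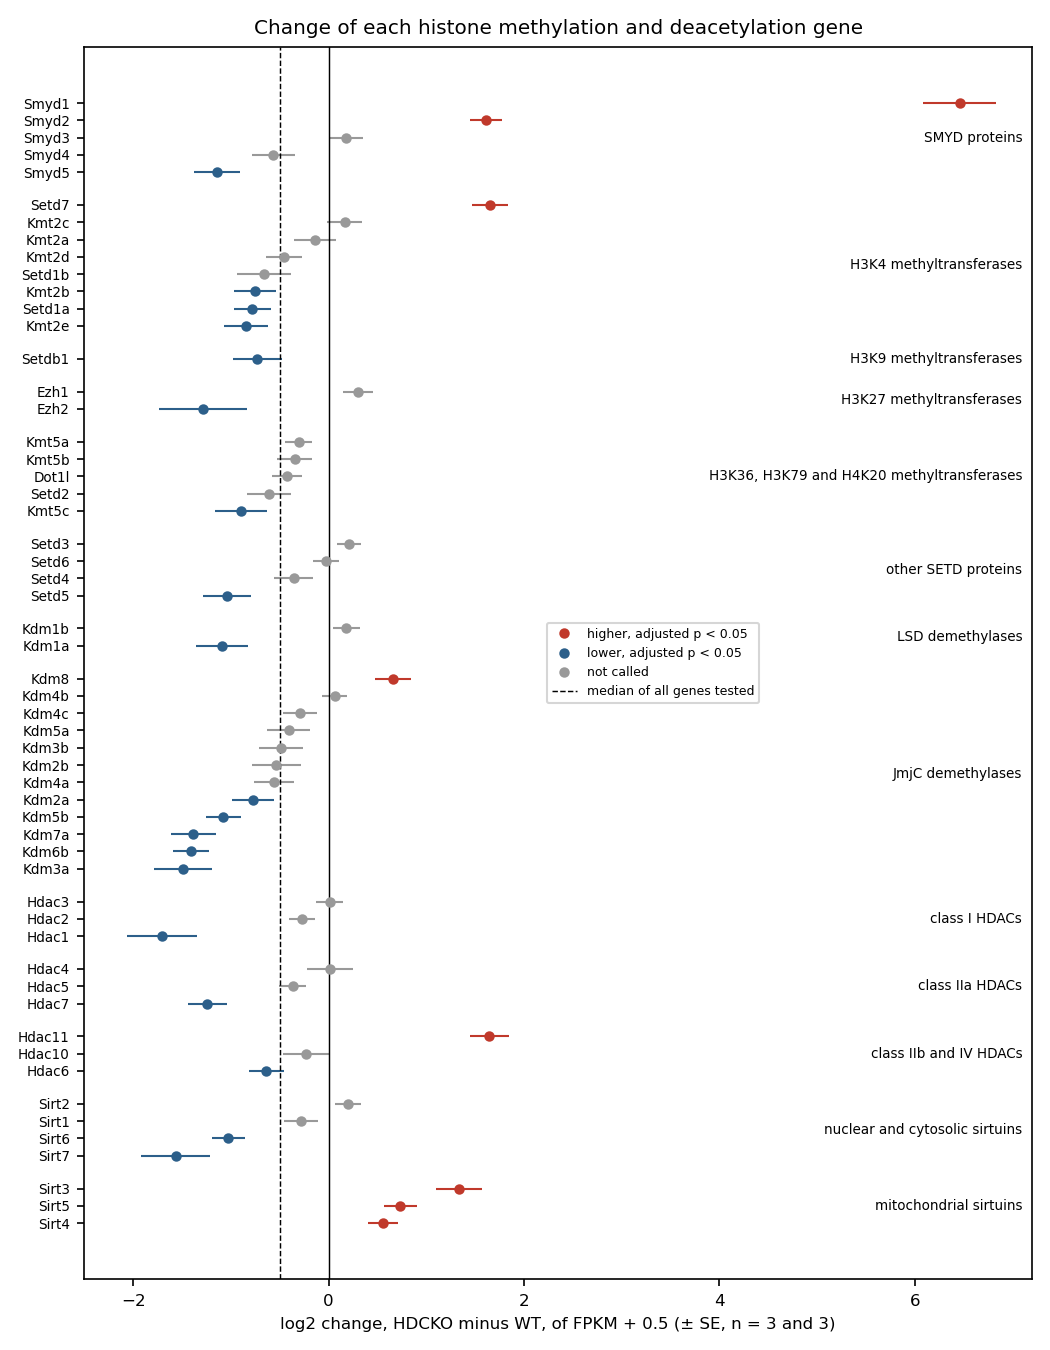
Points give the log2 change (HDCKO minus WT, of FPKM + 0.5) of each of the 55 tested members by role, with bars for the standard error (3 mice a group); the dashed line is the median of all genes tested, -0.50. Smyd1 stands alone at 6.46, the mitochondrial sirtuins are all to the right of 0, and with median-of-ratios scaling the points would be read from a median of -0.04, where 16 members are called higher and 11 lower.

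The SMYD proteins, which carry a SET domain split by a zinc finger, held the widest range of changes. Smyd1 is expressed in skeletal and cardiac muscle and binds myosin. In HDCKO replicates 1, 2 and 3 its level was 203, 158 and 107 FPKM, against 2.27, 0.730 and 1.00 in WT replicates 1, 2 and 3. Every HDCKO library was far above every WT library, and HDCKO replicate 3 was the lowest of its group, as it was for the fibre markers. The means were 156 ± 48.0 and 1.34 ± 0.824 (SD, n = 3 each), a log2 change of 6.46 (SE 0.37, limma adjusted p = 2.0e-04) and of 6.90 with median-of-ratios scaling. Ranked by mean FPKM among the 59 members, Smyd1 took rank 50 in WT and rank 1 in HDCKO. Smyd1 (ENSMUSG00000055027) lies on chromosome 6, 71190923 to 71299217, minus strand, in GRCm39.

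The 250 bases before the RefSeq start of Smyd1 are shown because this member changed most. They lie at chr6:71239266-71239515 on the minus strand of GRCm39 and come from the RefSeq promoter table built on GRCm38.p6, with 1 exact match in GRCm39. The RefSeq start, at 71239265, is also that of 1 of the 11 GENCODE transcripts and lies 28 bases before the start of the canonical one (71239237). The gene span above runs further, to 71299217, because 2 transcripts start there, so the window lies 5′ of the canonical transcript but within the span. Letters for an E-box core (CANNTG, searched on both strands) are not in this window, while 69.3% of all genes with a promoter entry hold them.
Smyd1: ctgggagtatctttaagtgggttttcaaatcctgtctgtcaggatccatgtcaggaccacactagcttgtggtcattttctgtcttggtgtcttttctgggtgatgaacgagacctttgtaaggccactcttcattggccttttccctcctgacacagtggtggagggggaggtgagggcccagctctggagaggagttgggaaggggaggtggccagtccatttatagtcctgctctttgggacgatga

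Smyd2 methylates histones and cytosolic proteins, among them the chaperone HSP90, and is abundant in muscle. In HDCKO replicates 1 to 3 its level was 80.9, 93.6 and 68.7 FPKM, against 27.9, 24.7 and 25.5 in WT replicates 1 to 3. The groups were well apart (81.1 ± 12.5 and 26.0 ± 1.66, log2 change 1.61, SE 0.16, limma adjusted p = 0.00102). Smyd5, which acts on H4K20 and H3K36, went the other way, with 4.36, 4.04 and 7.28 FPKM in HDCKO and 11.5, 10.8 and 13.1 in WT (a log2 change of -1.14, SE 0.24, adjusted p = 0.0101). It remained lower with median-of-ratios scaling at -0.65. Smyd4 (-0.57, adjusted p = 0.0623) and Smyd3 (0.18, adjusted p = 0.396) were not called, and Smyd3 was called higher with median-of-ratios scaling. Summed over the family, SMYD transcripts stood at 186 to 290 FPKM in HDCKO and 39.6 to 44.2 in WT. Smyd1 made up 70.1%, 61.3% and 57.7% of that sum in HDCKO replicates 1 to 3 and 5.14%, 1.84% and 2.36% in WT replicates 1 to 3.

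Among the 8 genes of H3K4 methyltransferase families, 1 was higher and 3 were lower on the deposited values. These shares (12.5% and 37.5%) were not above those of all genes (17.8% and 42.6%). With median-of-ratios scaling the 2 called were both higher (26.3% of all genes in each direction). The gene higher on the deposited values was Setd7, a monomethyltransferase of H3K4 that also methylates other proteins. In HDCKO its level was 52.4, 38.4 and 35.7 FPKM, against 11.9, 13.9 and 13.0 in WT. The lowest HDCKO library exceeded the highest WT library, and the means were 42.2 ± 8.97 and 12.9 ± 1.02 (log2 change 1.65, SE 0.19, limma adjusted p = 0.00144). The members called lower were Kmt2e (-0.84, adjusted p = 0.0211), whose SET domain has no known methyltransferase activity, Setd1a (-0.78, 0.0154) and Kmt2b (-0.75, 0.0268), both subunits of COMPASS-type complexes. All 3 lost the call with median-of-ratios scaling, at -0.34, -0.28 and -0.27. They also lost it without HDCKO replicate 2 (adjusted p = 0.0756, 0.0569 and 0.0914) and without WT replicate 3 (0.0596, 0.0586 and 0.0894). Other losses were Kmt2e (0.0706) and Kmt2b (0.0866) without WT replicate 2, Setd1a without WT replicate 1 (0.0543), and Kmt2b without HDCKO replicate 1 (0.0624). Setd1b (-0.66, adjusted p = 0.0807), Kmt2d (-0.46, 0.0713), Kmt2a (-0.14, 0.596) and Kmt2c (0.16, 0.439) were not called.

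A run of 26 bases from the Setd7 promoter window and one from that of Hdac11 are shown because, of the 8 higher members, these 2 hold the letters CAGCTG, an E-box of the kind bound by myogenic factors. The capitals mark those letters, which read the same on both strands and are included in the CANNTG core. The Setd7 run lies at chr3:51468271-51468296 on the minus strand and the Hdac11 run at chr6:91133683-91133708 on the plus strand of GRCm39, again from the RefSeq table on GRCm38.p6. The E-box lies 42 to 37 bases before the RefSeq start of Setd7 and 104 to 99 bases before that of Hdac11. GENCODE places the starts of the canonical transcripts further 5′, by 56 bases for Setd7 (51468300) and 155 bases for Hdac11 (91133642), so both runs lie in an annotated exon, in the UTR, of those transcripts.
Setd7: gtcagcggatCAGCTGctccataaca
Hdac11: gtctgtgacgCAGCTGcaggccagag

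Of the 59 members, 47 had an entry for the 250 bases before a start site. CAGCTG occurred in 2 of 8 higher members, 1 of 14 lower members (Setd1a) and 3 of 21 members not called, against 14.7% of all 27025 genes with an entry. The core of the hypoxia response element, ACGTG, occurred in 3 of 8 higher members (Kdm8, Sirt4 and Sirt5), 6 of 14 lower members and 3 of 21 not called, against 18.5% of all genes. The shares of members rest on few windows, and a match is a run of letters only. Matches to the MEF2 site were found in Hdac5 and Kdm4c, neither of them called, and in 3.42% of all genes.

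H3K27 is methylated by the Ezh1 and Ezh2 subunits of Polycomb repressive complex 2 (PRC2). Ezh2 is the form typical of dividing cells and Ezh1 that of differentiated cells such as muscle fibres. Ezh2 had 1.22, 2.22 and 5.56 FPKM in HDCKO replicates 1 to 3 and 7.03, 6.13 and 7.69 in WT. All HDCKO libraries were below the WT range, and replicate 3, which also had the highest cycling cell markers of the HDCKO libraries, was close to it. The means were 3.00 ± 2.27 and 6.95 ± 0.784 (log2 change -1.28, SE 0.45, limma adjusted p = 0.0468). This call was lost with median-of-ratios scaling (-0.83, adjusted p = 0.0789), and without HDCKO replicate 1 (0.0851), HDCKO replicate 2 (0.127) or WT replicate 1, 2 or 3 (0.111, 0.0940 and 0.124). Ezh1 had 8.40, 9.89 and 9.04 FPKM in HDCKO and 6.86, 8.48 and 6.62 in WT, so that the groups overlapped. Its log2 change was 0.30 (SE 0.15, adjusted p = 0.128) on the deposited values and 0.80 (adjusted p = 0.0150, called higher) with median-of-ratios scaling.

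Among the methyltransferases of H3K9, H3K36, H3K79 and H4K20, 2 were called, both lower, as were 42.6% of all genes. Setdb1, which methylates H3K9 and silences retroelements, was lower at -0.73 (adjusted p = 0.0451), and Kmt5c, which places the higher methylation states of H4K20, at -0.90 (0.0288). Neither was called with median-of-ratios scaling (-0.23 and -0.42). Each lost the call whenever a library was left out, save HDCKO replicate 3, with adjusted p from 0.0803 to 0.126 for Setdb1 and from 0.0651 to 0.0966 for Kmt5c. Not called were Setd2, the enzyme that trimethylates H3K36 (-0.61, 0.0557), Dot1l, which acts on H3K79 (-0.42, 0.0549), Kmt5b (-0.35, 0.128) and Kmt5a (-0.30, 0.0962). The groups of Setd2, Dot1l and Kmt5a did not overlap, as for 51.4% of all genes in the lower direction. With median-of-ratios scaling their changes were -0.11, 0.07 and 0.22.

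Of the other SETD proteins, Setd5 had 2.83, 3.45 and 5.63 FPKM in HDCKO and 8.43, 7.93 and 8.78 in WT. The groups were apart, and the log2 change was -1.04 (SE 0.25, limma adjusted p = 0.0146), with -0.56 and the call kept under median-of-ratios scaling. Leaving out HDCKO replicate 2, WT replicate 1 or WT replicate 3 gave an adjusted p of 0.0578, 0.0513 and 0.0545. Setd3, a histidine methyltransferase of actin, had one of the highest levels of all members in both groups (39.0 ± 2.28 and 33.7 ± 1.21 FPKM). Its log2 change was 0.21 (limma adjusted p = 0.187), and it was called higher with median-of-ratios scaling (0.73). Its groups did not overlap, as for 21.2% of all genes in the higher direction. Setd4 (-0.36, 0.159) and Setd6 (-0.03, 0.871) were not called. Over all 25 tested genes of the methyltransferase families, 3 were higher and 8 lower, and 7 were higher and 2 lower with median-of-ratios scaling. As deposited, these are 12.0% and 32.0%, against 17.8% and 42.6% of all genes. The summed level of all 26 genes was 383 to 471 FPKM in HDCKO and 229 to 241 in WT. Much of that sum came from the 3 higher genes, so it does not describe the other genes. Smyd1, Smyd2 and Setd7 had means of 156, 81.1 and 42.2 FPKM in HDCKO and 1.34, 26.0 and 12.9 in WT. Leaving out HDCKO replicate 1, 2 or 3 gave 4, 1 and 14 lower genes, and leaving out WT replicate 1, 2 or 3 gave 3, 3 and 1, with 3 higher each time.

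**Figure D2:**
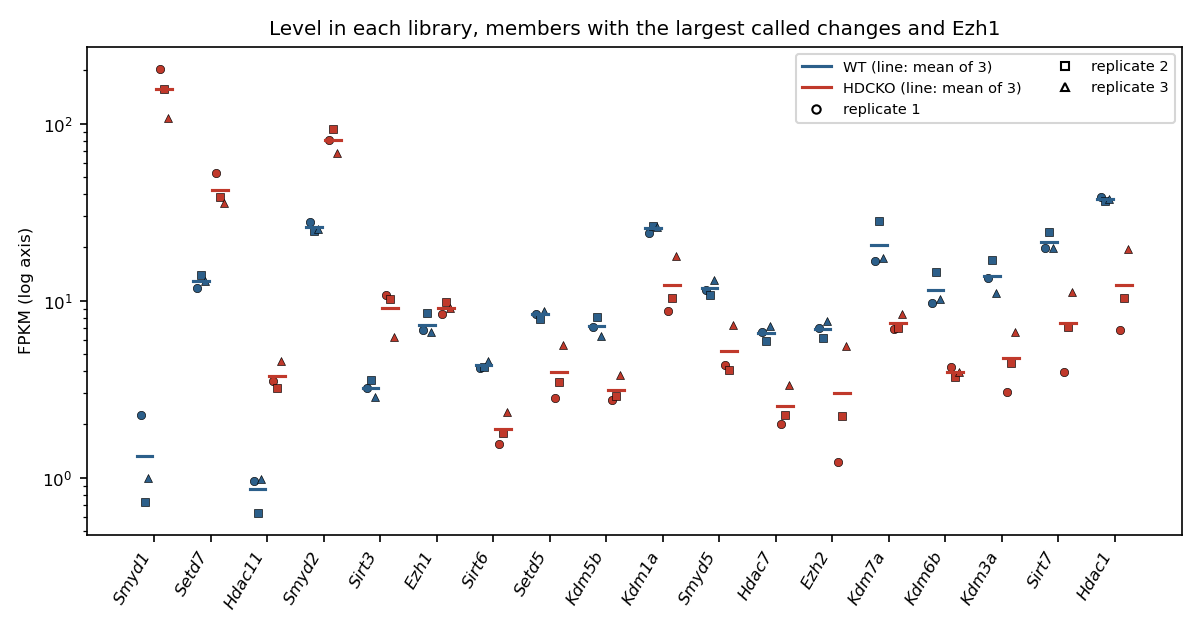
FPKM (log axis) of each called member with a log2 change of at least 1 in size, and of Ezh1, in the 3 WT (blue) and 3 HDCKO (red) libraries; symbols mark the replicate and short lines the mean. Smyd1 lies at 107 to 203 in HDCKO and 0.730 to 2.27 in WT, the groups overlap only for Ezh1, and among the members shown to be lower Ezh2 is not called with median-of-ratios scaling.

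Of 14 demethylases tested, 1 was higher and 6 were lower in HDCKO muscle, and with median-of-ratios scaling 3 were higher and 5 lower. The lower share on the deposited values, 42.9%, is that of all genes (42.6%; 17.8% were higher, and 26.3% in each direction with median-of-ratios scaling). Without HDCKO replicate 3 the count of lower genes was 11, and without any other library it was 4 to 6. Their summed level was 64.3 to 99.4 FPKM in HDCKO and 131 to 162 in WT. Kdm1a (LSD1), the H3K4 and H3K9 demethylase of the CoREST complex, had 8.71, 10.4 and 17.8 FPKM in HDCKO and 24.2, 26.6 and 26.2 in WT. Its log2 change was -1.09 (SE 0.27, limma adjusted p = 0.0164), and -0.58 with the call kept under median-of-ratios scaling. Leaving out HDCKO replicate 2, WT replicate 2 or WT replicate 3 gave adjusted p of 0.0633, 0.0543 and 0.0558. Kdm1b (LSD2), its relative, was not called (0.18, limma adjusted p = 0.283), and was called higher with median-of-ratios scaling. The Kdm1b groups did not overlap, as for 21.2% of all genes in the higher direction.

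Among the 12 tested JmjC demethylases, 4 were called lower with a log2 change of at least 1, as were 26.0% of all genes. Kdm3a, an H3K9 demethylase that hypoxia induces, had 3.07, 4.45 and 6.68 FPKM in HDCKO and 13.4, 16.9 and 11 in WT (a log2 change of -1.49, SE 0.30, limma adjusted p = 0.00903). Kdm6b, the H3K27 demethylase JMJD3, which inflammatory stimuli induce in macrophages, had 4.21, 3.70 and 3.96 FPKM in HDCKO and 9.74, 14.5 and 10.2 in WT (-1.41, SE 0.19, adjusted p = 0.00266). In both, every HDCKO library was below every WT library, and for Kdm6b the HDCKO libraries lay close together. Kdm7a, which acts on H3K9 and H3K27, had 6.88, 7.01 and 8.44 FPKM in HDCKO and 16.7, 28.1 and 17.4 in WT (-1.38, SE 0.23, adjusted p = 0.00547). Kdm5b, an H3K4 demethylase, had 2.76, 2.89 and 3.79 FPKM in HDCKO and 7.12, 8.08 and 6.30 in WT (-1.08, SE 0.17, adjusted p = 0.00497). For all 4 genes the groups were apart, and with median-of-ratios scaling the changes were -1.0, -0.91, -0.87 and -0.60, all still called.

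Kdm2a, an H3K36 demethylase, was lower at -0.77 (adjusted p = 0.0228) but not with median-of-ratios scaling (-0.26), and not without HDCKO replicate 2 (0.0760) or WT replicate 1, 2 or 3 (0.0615, 0.0754 and 0.0557). Kdm8 was the single demethylase that was higher, with 1.83, 1.72 and 1.5 FPKM in HDCKO and 0.752, 0.725 and 1.20 in WT (0.66, SE 0.19, adjusted p = 0.0252). Its call was lost without HDCKO replicate 1 or 2 (0.0566 and 0.0808) and WT replicate 1 or 2 (0.0910 and 0.0816). Not called were Kdm4a (-0.56, 0.0526), Kdm2b (-0.54, 0.105), Kdm3b (-0.49, 0.104), Kdm5a (-0.41, 0.151), Kdm4c (-0.29, 0.178) and Kdm4b (0.06, 0.684). Kdm4b was called higher with median-of-ratios scaling (0.55). Kdm4d was below the filter, at 0 to 0.0351 FPKM in HDCKO and 0.0310 to 0.0980 in WT.

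Among the 9 tested HDACs, 1 was higher and 3 were lower, and 2 were higher and 2 lower with median-of-ratios scaling. These shares of the HDACs (11.1% higher and 33.3% lower as deposited) were not above those of all genes (17.8% and 42.6%). With HDCKO replicate 3 left out 5 HDACs were lower, and with any other library left out 2. Hdac1, a class I enzyme of the Sin3, NuRD and CoREST complexes, had 6.80, 10.4 and 19.5 FPKM in HDCKO replicates 1 to 3 and 38.5, 36.7 and 37.4 in WT. The WT libraries lay within a narrow range, and the HDCKO libraries were all lower and spread widely. The means were 12.2 ± 6.56 and 37.5 ± 0.920 (log2 change -1.70, SE 0.36, limma adjusted p = 0.0105), and the change was -1.19 with median-of-ratios scaling and still called. Hdac1 had the highest mean FPKM of all members in WT and took rank 10 in HDCKO. Hdac2, which shares those complexes, was not called (-0.28, limma adjusted p = 0.117), and its change was 0.25 with median-of-ratios scaling. The Hdac2 groups did not overlap (22.2 to 27.1 FPKM in HDCKO, 28.7 to 29.8 in WT), as for 51.4% of all genes in the lower direction. Hdac3, the enzyme of the NCoR complex, had 31.4 ± 2.86 and 31.1 ± 2.20 FPKM (0.01, adjusted p = 0.953), and was called higher with median-of-ratios scaling (0.53). Hdac8 was below the filter, at 0.183 to 0.433 FPKM in HDCKO and 0.327 to 0.401 in WT.

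Of the class IIa HDACs, Hdac7 had 2.02, 2.27 and 3.33 FPKM in HDCKO and 6.69, 5.92 and 7.17 in WT. The groups did not overlap, and Hdac7, known for its role in endothelial cells and thymocytes, was lower at -1.24 (SE 0.20, limma adjusted p = 0.0049), and at -0.78 with median-of-ratios scaling. Of the 8 endothelial markers 5 were lower (42.6% of all genes), and the part of endothelial cells in the level of Hdac7 was not tested. Hdac5 (-0.37, 0.0557) and Hdac4 (0.02, 0.958) were not called, and Hdac9 was below the filter (0.356 to 0.547 FPKM in HDCKO, 0.203 to 0.454 in WT). Hdac11, the class IV enzyme, which removes long-chain acyl groups and is expressed in muscle, had 3.53, 3.20 and 4.58 FPKM in HDCKO and 0.960, 0.636 and 0.986 in WT. All HDCKO libraries were above the WT range (3.77 ± 0.719 and 0.861 ± 0.195, log2 change 1.65, SE 0.20, adjusted p = 0.00186). Hdac6, the cytoplasmic tubulin deacetylase of class IIb, was lower at -0.64 (adjusted p = 0.0245), but not with median-of-ratios scaling (-0.18). It was also not called without HDCKO replicate 1 or 2 (0.0564 and 0.0887) or WT replicate 1, 2 or 3 (0.0704, 0.0709 and 0.0865). Hdac10, the polyamine deacetylase, was not called (-0.23, 0.408).

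All 3 mitochondrial sirtuins were higher, on the deposited values (17.8% of all genes) and with each of the 3 other scalings. Of the 4 nuclear or cytosolic sirtuins 2 were lower on the deposited values (42.6% of all genes), and with each of the 3 other scalings 2 were lower and 1, Sirt2, was higher. The difference between the compartments was not tested. Sirt3, the main mitochondrial deacetylase, had 10.7, 10.3 and 6.22 FPKM in HDCKO and 3.23, 3.55 and 2.85 in WT. The groups were apart, and HDCKO replicate 3 was the lowest of its group (9.08 ± 2.48 and 3.21 ± 0.353, log2 change 1.34, SE 0.24, limma adjusted p = 0.00622). Sirt5, which removes succinyl and malonyl groups, had 2.13, 1.87 and 2.10 FPKM in HDCKO and 0.840, 0.979 and 1.29 in WT (0.73, SE 0.17, adjusted p = 0.0135). Sirt4, which regulates glutamate dehydrogenase, had 2.83, 3.05 and 3.24 FPKM in HDCKO and 2.22, 1.67 and 1.85 in WT (0.56, SE 0.15, adjusted p = 0.0233). For both the groups did not overlap. The Sirt5 call was lost without WT replicate 1 (0.0567), and that of Sirt4 without HDCKO replicate 2 (0.0767) or WT replicate 2 or 3 (0.0805 and 0.0819).

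Sirt7, a nucleolar deacetylase of H3K18, had 3.98, 7.11 and 11.2 FPKM in HDCKO replicates 1 to 3 and 19.9, 24.5 and 19.7 in WT (a log2 change of -1.56, SE 0.35, limma adjusted p = 0.0127). Sirt6, which acts on H3K9 at telomeres and glycolytic genes, had 1.55, 1.78 and 2.34 FPKM in HDCKO and 4.17, 4.22 and 4.58 in WT (-1.03, SE 0.17, adjusted p = 0.00539). The groups of both were apart, and both kept their call with median-of-ratios scaling (-1.06 and -0.58). Sirt1, a nuclear deacetylase of histones and of PGC-1alpha, was not called (-0.28, 0.192). Sirt2, a mostly cytoplasmic deacetylase, was not called at 0.20 (0.230) but was called higher with median-of-ratios scaling (0.72). Summed, the mitochondrial sirtuins stood at 11.6 to 15.7 FPKM in HDCKO and 5.98 to 6.29 in WT, while the sum over all 7 sirtuins overlapped between groups (62.2 to 69.8 and 67.0 to 76.3).

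Because the scaling of a library cancels in a ratio of 2 genes, save for the 0.5 added to each value, related enzymes were compared within each library. Of 19 pairs, the ratio did not overlap between groups in 13, higher in HDCKO in 6 and lower in 7. Ratios of other gene pairs were not computed, so this count has no background beside it. Taken singly, 21.2% of all genes did not overlap in the higher direction and 51.4% in the lower. An exact two-sided permutation test over the 6 libraries cannot go below p = 0.1, which these 13 pairs reached (0.146 after Benjamini-Hochberg adjustment over the 19 pairs), so none passed a threshold of 0.05. The shift was largest in Smyd1 over Smyd2, with a log2 ratio of 0.91 ± 0.37 in HDCKO against -3.94 ± 0.52 in WT (SD, n = 3 each), a difference of 4.85. Ezh1 over Ezh2 rested at 1.65 ± 0.89 in HDCKO and 0.07 ± 0.33 in WT, a difference of 1.58. Ezh1 made up 87.3%, 81.6% and 61.9% of the summed FPKM of both genes in HDCKO replicates 1 to 3 and 49.4%, 58.0% and 46.3% in WT replicates 1 to 3. The share was above the WT range in each HDCKO library, and least so in replicate 3.

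Hdac1 made up 22.5%, 31.9% and 41.8% of the sum of Hdac1 and Hdac2 in HDCKO replicates 1 to 3 and 56.5%, 56.1% and 55.7% in WT, a difference in log2 ratio of -1.43. The WT shares were nearly equal, and the HDCKO shares were all lower. Kdm1a made up 70.3%, 74.8% and 81.1% of the sum of Kdm1a and Kdm1b in HDCKO and 88.8%, 88.6% and 88.8% in WT (difference in log2 ratio -1.28). Kdm3a over Kdm3b differed by -1.0, Sirt1 over Sirt2 by -0.48, Hdac6 over Hdac10 by -0.40 and Kdm4a over Kdm4c by -0.26. Hdac7 over Hdac9 differed by -1.45, with Hdac9 below the filter. In the other direction stood Kdm5a over Kdm5b (0.67), Kmt2c over Kmt2d (0.62), Kmt2a over Kmt2b (0.61) and Kmt5b over Kmt5c (0.55). In the pairs Sirt3 and Sirt5, Sirt6 and Sirt7, Hdac4 and Hdac5, Setd1a and Setd1b, Kdm2a and Kdm2b, and Setdb1 and Setdb2 the ratios overlapped (exact p from 0.2 to 0.6). Of the last pair, Setdb2 was below the filter, at 0.0194 to 0.195 FPKM in HDCKO and 0.0361 to 0.279 in WT.

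**Figure D3:**
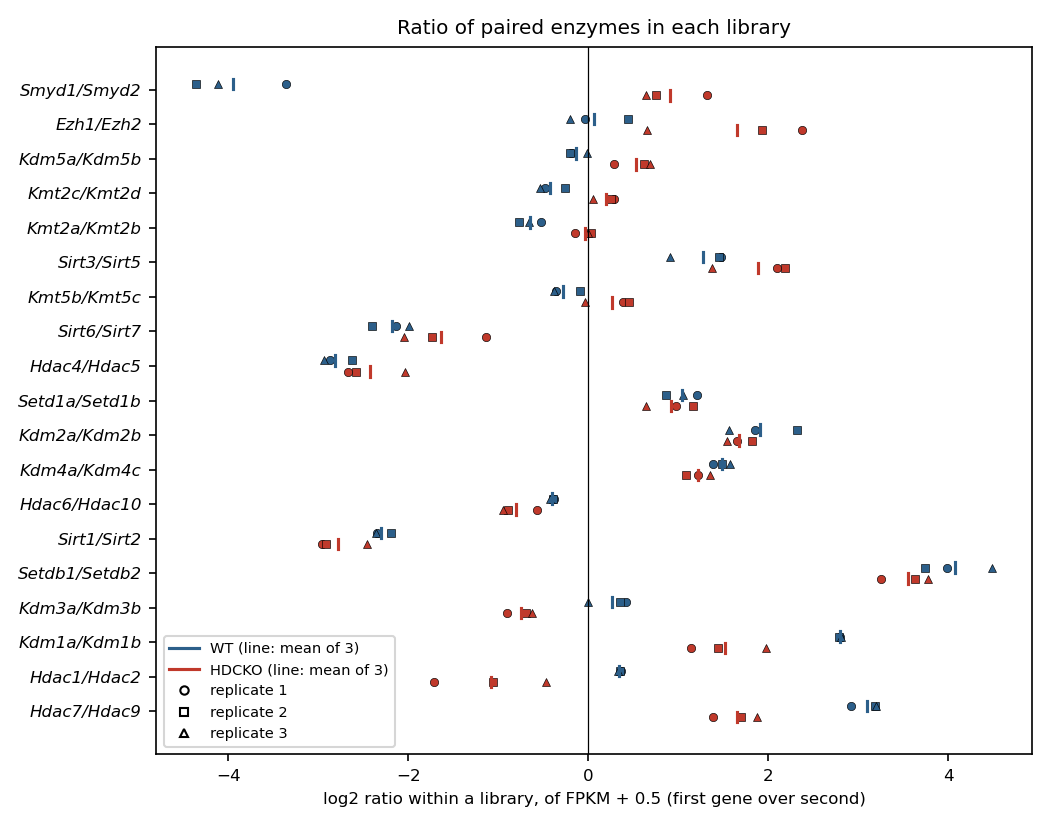
Log2 ratio of the first gene over the second (of FPKM + 0.5) within each library for the 19 pairs, in WT (blue) and HDCKO (red); symbols mark the replicate and short lines the mean of 3. Smyd1 over Smyd2 moves from -3.94 in WT to 0.91 in HDCKO, Ezh1 over Ezh2 rises from 0.07 to 1.65, and Hdac1 over Hdac2 falls from 0.35 to -1.08.

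The HDCKO libraries were not alike in these genes. Among the 19 lower members, HDCKO replicate 3 was the library nearest to the WT mean in 18 and replicate 1 the farthest in 17. Among the 8 higher members, replicate 3 was the nearest in 5 and replicate 1 the farthest in 5. These positions were not counted over all genes. Of all 13288 genes, 7266 were called lower without HDCKO replicate 3, and 4418 and 2502 without replicate 1 or 2. The summed fibre markers were also nearest to WT in HDCKO replicate 3 and farthest in replicate 1 (103416, 86240 and 55835 FPKM in HDCKO replicates 1, 2 and 3, 485 to 1832 in WT). The same held for the summed cycling cell markers (26.7, 55.4 and 236 FPKM, 339 to 409 in WT). It also held for macrophage (326, 951 and 2202, 2479 to 3063 in WT), endothelial (191, 233 and 290, 388 to 582) and fibroblast markers (1551, 1648 and 2282, 2670 to 5162). Neutrophil markers were nearest to WT in replicate 2 (33.4, 77.4 and 71.2, 2572 to 14769 in WT), and myoblast markers in replicate 1 (33.2, 37.2 and 160, 6.44 to 29.2). The part of any of these cell types in the level of the members was not tested. Kdm6b and Kdm7a had an SD of 0.256 and 0.865 FPKM among HDCKO libraries, below that among WT libraries (2.63 and 6.37). Their means were 3.96 and 7.44 FPKM in HDCKO and 11.5 and 20.7 in WT. Kdm5b had 3.15 ± 0.557 FPKM in HDCKO and 7.17 ± 0.890 in WT, so relative to the mean its spread was not smaller in HDCKO. For Ezh2, Hdac1 and Sirt7 the SD among HDCKO libraries (2.27, 6.56 and 3.64) was above that among WT libraries (0.784, 0.920 and 2.68).

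**Figure D4:**
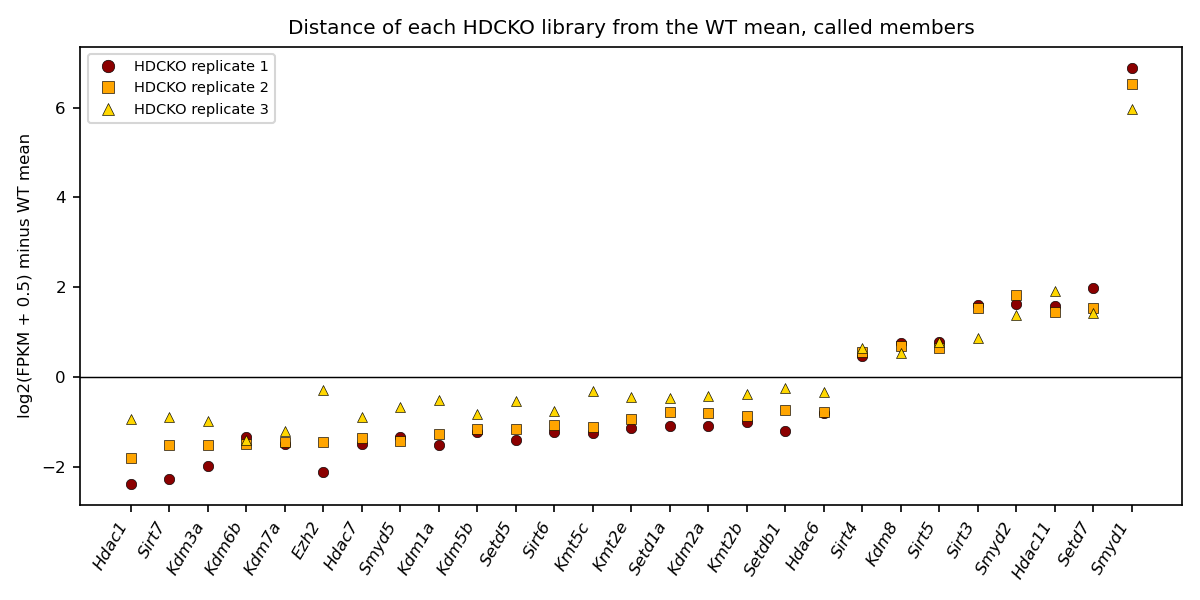
Distance of each HDCKO library from the WT mean, in log2(FPKM + 0.5), for the 27 called members; symbols and colours mark the replicate. HDCKO replicate 3 is the nearest to 0 for 18 of the 19 lower members and 5 of the 8 higher ones, and the calls shown are those on the deposited values, of which 8 lower ones are not called with median-of-ratios scaling. The positions were not counted over all genes.

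The partners of these enzymes were counted in the same way, with lists chosen with earlier results of these data known. The counts of these lists stand against 17.8% of all genes higher and 42.6% lower on the deposited values, and 26.3% in each direction with median-of-ratios scaling. Of 10 PRC2 partners 6 (60%) were called, all lower, with a median log2 change of -0.76, and 1 was called, also lower, with median-of-ratios scaling. Epop (-1.60, limma adjusted p = 0.0109), a PRC2 accessory protein, kept its call under that scaling and with each library left out. Eed (-0.66, 0.0198) and Suz12 (-0.93, 0.0253), both core subunits, lost theirs under that scaling, and without HDCKO replicate 2 (0.0728 and 0.0840), WT replicate 1 (0.0701 and 0.0658), WT replicate 2 (0.0623 and 0.0799) or WT replicate 3 (0.0561 and 0.0683). Leaving out HDCKO replicate 1, 2 or 3 gave 3, 1 and 9 lower PRC2 partners, and leaving out any WT replicate gave 1.

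Of 13 COMPASS partners 8 (61.5%) were called, all lower (median -0.56), and with median-of-ratios scaling 1 was higher and 2 were lower. Paxip1 (-0.87, limma adjusted p = 0.0135) and Ncoa6 (-0.84, 0.0135) are subunits of the Kmt2c and Kmt2d complexes, and Wdr5 (-0.68, 0.0160) is a core subunit of all COMPASS forms. With median-of-ratios scaling Wdr5 was not called. Without HDCKO replicate 2 none of the 13 passed in limma (5 at an unadjusted p under 0.05), and the 3 named genes had adjusted p of 0.0519, 0.0560 and 0.0670. Paxip1 was also lost without WT replicate 3 (0.0526), Ncoa6 without WT replicate 2 (0.0503), and Wdr5 without WT replicate 1, 2 or 3 (0.0550, 0.0547 and 0.0555). With HDCKO replicate 1 or 3 left out 4 and 11 genes were lower, and with WT replicate 1, 2 or 3 left out 2, 1 and 1.

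Of 22 partners of class I HDACs in corepressor complexes 14 (63.6%) were called, all lower (median -0.90), and with median-of-ratios scaling 2 were higher and 9 lower. Rcor2 (-2.13, limma adjusted p = 0.00534) and Rcor1 (-1.12, 0.0119) are CoREST scaffolds for Kdm1a and Hdac1, and Mbd2 (-1.34, 0.00716) is a methyl-CpG-binding subunit of NuRD. All 3 kept their call with median-of-ratios scaling, and Rcor1 lost it without HDCKO replicate 2 (0.0503). With HDCKO replicate 1, 2 or 3 left out 11, 3 and 17 genes were lower, and with WT replicate 1, 2 or 3 left out 7, 5 and 4.

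Of 15 lysine acetyltransferases, which oppose the HDACs, 1 was higher and 5 (33.3%) were lower (median -0.45), and 3 were higher and 2 lower with median-of-ratios scaling. Kat2b (PCAF), a coactivator of myogenic factors, was higher at 0.50 (limma adjusted p = 0.0214). Taf1 (-0.94, 0.0162), a subunit of TFIID, and Hat1 (-1.05, 0.0252), which acetylates new histone H4, were lower. These 3 lost their call without HDCKO replicate 2 and without any 1 of the WT replicates (adjusted p 0.0512 to 0.0819), and in those fits none of the 15 genes passed in limma (4 to 6 at an unadjusted p under 0.05). Leaving out HDCKO replicate 1 or 3 gave 2 and 10 lower genes.

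A list of other lysine methyltransferases, demethylases and JmjC-domain oxygenases had 2 higher and 9 (50%) lower genes of 18 (median -0.70), against 3 and 4 with median-of-ratios scaling. Hr (2.58, limma adjusted p = 7.0e-04), a JmjC corepressor, and Hif1an (1.97, 5.8e-04), the asparagine hydroxylase that restrains HIF-1alpha and no lysine demethylase, were higher. Jmjd6 was lower (-0.95, 0.00273), but not with median-of-ratios scaling (-0.43). The 3 genes kept their call with each library left out, while the list then held 4, 1 and 13 lower genes with HDCKO replicate 1, 2 or 3 left out and 2, 2 and 1 with WT replicate 1, 2 or 3 left out.

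MEF2 factors and the kinases that move class IIa HDACs out of the nucleus had 5 higher (38.5%) and 4 lower (30.8%) genes of 13, with 5 higher and 1 lower under median-of-ratios scaling. Mef2c had 8.95, 6.29 and 7.58 FPKM in HDCKO and 0.773, 0.680 and 0.693 in WT (log2 change 2.73, limma adjusted p = 2.4e-04), so that each HDCKO library was far above each WT library. Camk2a (5.92, 2.4e-04) and Camk2b (4.08, 1.5e-04) of this list were also higher. FPKM per gene does not tell the transcripts of a gene apart. The 5 higher calls were made with each library left out, while 2 and 1 genes were lower with WT replicate 2 or 3 left out. Among the 3 tested class IIa HDACs the 1 call was the lower one of Hdac7, on the deposited values and with median-of-ratios scaling.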

How the data were processed

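Total RNA of hind limb muscle from 6 mice was sequenced, 1 library a mouse, and the authors deposited FPKM values per gene, made from counts per the submitters' processing notes. Those notes name FastQC 0.11.9, HISAT2 2.1.0, HTSeq 0.11.2, STAR 2.7.11b and the build GRCm39. The aligner behind the deposited values, and the use of strand, were not given in the sources used here. Reads of overlapping genes may therefore not have been told apart. FPKM is relative to all fragments, so a library rich in fibre transcripts lowers all other values. Depth was estimated from the step between low FPKM values.

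HDCKO was compared with WT by limma-trend (limma 3.58.1, R 4.3.3) on log2(FPKM + 0.5) in the 13288 genes whose mean reached 0.5 FPKM, with Benjamini-Hochberg adjustment and a threshold of 0.05. Fold changes are on that scale, which understates low genes. Each p-value sets the group difference against the spread within these groups of 3 and 3 mice, which limma moderates over all genes tested. Paralogue ratios were tested by exact permutation (scipy 1.17.1). The fit was tested on simulated data. Every tested member is named, with values per library where a call came with a log2 change of at least 1 in size, and up to 3 called partners per list. Members were found by gene symbol, without any measured value, but that rule and the lists were set with earlier results of these data known. Promoters came from RefSeq (table on GRCm38.p6), and coordinates from the annotation of GRCm39. Alternatives were 3 other scalings, pseudocounts of 0.1 and 1, no filter or one at 2 FPKM, sample weights, a replicate block and each library left out. Ezhip and Mef2b are not analysed here, and Prdm16 and Camk4 were below the filter.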

Additional observations from a re-analysis of the deposited data

How the results depend on the processing

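The counts of members called on the deposited values, 8 higher and 19 lower, moved with scaling, with sample weights and, for the lower members, with the library left out. The count of higher members was 16 with median-of-ratios scaling, 14 after quantile normalization, 15 without fibre and mitochondrial genes in the sum and 13 with sample weights, and ran from 6 to 8 with a library left out. The count of lower members was 11, 14, 11 and 36 under those settings and ran from 9 to 32 with a library left out. Of all 13288 genes tested, the fits with a library left out called 1785 to 2475 higher and 2502 to 7266 lower. The weighted fit gave a warning on convergence. Pseudocounts of 0.1 and 1 gave 18 and 19 lower members and 8 higher members each, no filter gave 6 higher and 16 lower, and a filter at 2 FPKM gave 6 higher and 22 lower. Kdm8 and Sirt5 were below the filter at 2 FPKM, so their higher calls were not tested there. Counts of all genes under these settings, the sample weights and the replicate block are not given here. Same-numbered HDCKO and WT libraries correlated at 0.122, 0.067 and 0.138 in their deviations from the group means. Libraries of unlike number correlated at -0.182 to 0.112, the highest being HDCKO replicate 2 with WT replicate 1. The labels name no pairing, and whether same-numbered libraries belong together was not tested. With the replicate block 6 members were higher and 18 lower, and Kdm8 (adjusted p = 0.0614), Sirt4 (0.0604) and Setdb1 (0.0518) were not called. No called member changed sign under any alternative, and the causes of lost calls were not tested.

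Of the members not called, 15 changed sign in at least 1 alternative (given as log2 changes). With median-of-ratios scaling, Dot1l stood at 0.067, Hdac10 at 0.25, Hdac2 at 0.25, Hdac5 at 0.14, Kdm3b at 0.016, Kdm4c at 0.17, Kdm5a at 0.074, Kmt2a at 0.33, Kmt2d at 0.015, Kmt5a at 0.22, Kmt5b at 0.13, Setd6 at 0.44 and Sirt1 at 0.20. After quantile normalization, Hdac10 stood at 0.17, Hdac2 at 0.12, Hdac5 at 0.078, Kdm4c at 0.086, Kdm5a at 0.011, Kmt2a at 0.25, Kmt5a at 0.085, Kmt5b at 0.050, Setd6 at 0.35 and Sirt1 at 0.13. Without fibre and mitochondrial genes in the sum, Hdac10 stood at 0.16, Hdac2 at 0.15, Hdac5 at 0.049, Kdm4c at 0.085, Kmt2a at 0.25, Kmt5a at 0.12, Kmt5b at 0.043, Setd6 at 0.36 and Sirt1 at 0.12. With sample weights, Hdac3 stood at -0.044, Hdac4 at -0.025 and Setd6 at 0.053. With each library left out in turn, the change ran from -0.063 to 0.051 for Hdac3, from -0.15 to 0.19 for Hdac4, from -0.34 to 0.033 for Kmt2a and from -0.068 to 0.015 for Setd6. Values well under 0.5 FPKM, as in Hdac8, Kdm4d and Setdb2, rest on few fragments at this depth.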
